A study of Mus musculus with 28 samples.

Results

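Messenger RNAs of 64 cytosolic ribosomal proteins were followed in mouse embryonic fibroblasts (MEFs) exposed to H2O2 or to doxorubicin (Doxo), a DNA intercalating drug. Members were taken by gene symbol, as the numbered Rpl and Rps genes with Rplp0, Rplp1, Rplp2 and Rpsa, and each was read at its probe set with the highest mean over all arrays. They were 64 of the 17097 genes with a probe set of a single symbol, 23 of them in the small and 41 in the large subunit.

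Primary MEFs came from 13.5-day embryos of wild-type (WT) mice and of mice with p53 knocked out (p53-/-) or p66Shc knocked out (p66-/-), and were used at passage 2. The 28 arrays fell into 8 groups. Each genotype had 4 untreated arrays and 4 arrays after 400 μM H2O2, while WT and p66-/- cells had 2 arrays each after 0.25 μg/ml Doxo, all for 4 h. The labels call the replicates biological and name C57Bl/6 as the strain, where the methods name sv129. Values were log2 probe set intensities, and p-values cover the spread between these samples. On such bulk arrays, less RNA of a gene per cell and fewer cells that carry it cannot be told apart.

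The cytosolic ribosome joins a small subunit, which reads the message, to a large subunit, which forms peptide bonds. Its proteins are made in matching amounts in growing cells, and their mRNAs are long-lived, abundant and controlled mainly at translation, through a pyrimidine stretch at the 5′ end called the TOP motif. Several of the proteins also have known roles outside the ribosome. Rpl11, Rpl23, Rps7 and Rpl26 belong to those that bind Mdm2, the ubiquitin ligase of p53, or in the case of Rpl26 the p53 mRNA.

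Library labels and array sets bear on what follows. In p53-/- cells the stress genes Atf3 and Gadd45a read against the treatment labels. Atf3 measured 8.54, 9.39, 8.76 and 8.85 on the arrays labelled untreated and 5.57, 6.30, 6.08 and 5.98 on those labelled H2O2, so p53-/- results are given as labelled, and counts and medians also after swapping the treatment labels of these arrays. Replicates 1 and 2 of all 6 untreated and H2O2 groups differed from replicates 3 and 4 in the spike-in lys (5.02 to 6.22 against 3.20 to 4.13). The 4 Doxo arrays had 3.95 to 4.46 and exceeded all others in the spike-in bioB (7.91 to 8.17 against 6.62 to 7.68). Doxo and its array set cannot be told apart. The fibroblast markers Vim, Fn1 and Col3a1 had means of 12.95, 12.33 and 12.29. Col1a2 had 5.10, and the markers of other cell types Ptprc, Pecam1 and Alb had 4.22, 3.28 and 3.32, against array medians of 4.35 to 4.46. Averaged over all 19 measured markers of other cell types, the arrays read 4.56 to 5.48, above these medians.

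At the chosen probe sets, which the rule picks for their high mean, 60 of the 64 members had a mean over 12, while 28 of the 59 further probe sets of these genes had a mean under 11. Rpl14, a large subunit protein, was read at 8.16, and Rps15a, a small subunit protein, at 4.70, close to the array medians. The other 62 members are summarized apart from this pair where intervals are given. The median within-group SD of a member was 0.05, and for 55 of 64 all 28 values lay within a range of 0.5. These levels were near the top of the scale, since the brightest probe set of an array read 13.33 at the lowest, and whether the scale compressed their changes was not tested. Many of these genes have near-identical copies. RefSeq lists pseudogenes under the names of 52 members, and 22 of the chosen probe sets carry the suffix of sets that can match several transcripts, so their signals may include such copies. Of the 76 members that RefSeq names, 12 had no probe set with a single symbol and were not analysed here, among them Rpl5, Rps27a, Rps3 and Rpl38.

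After H2O2 none of the chosen probe sets of the 64 members was called in any genotype. Among the further probe sets, those of Rpl13 (mean 10.88, -0.49, adjusted p = 0.030) and Rpl41 (mean 6.77, -0.57, adjusted p = 0.040) fell in WT cells, and in p53-/- cells as labelled those of Rpl41 with means of 6.77 and 7.25 rose (0.88 and 0.57), which the swap of labels turns to falls. In WT cells 0 of 64 members passed an adjusted p of 0.05 in limma, with 3.66% of all probe sets called, and 0 had an unadjusted p under 0.05. In 9 of 64 all 4 H2O2 arrays lay above all 4 untreated ones (exact permutation p = 0.029 each, two-sided, the smallest these arrays allow), where 4.69% of all probe sets did, and in 0 they lay below, where 3.69% did. These were Rpl17, Rpl32, Rpl37a, Rpl41, Rpl7, Rps12, Rps13, Rps16 and Rps21, with differences of 0.04 to 0.09. Stress genes responded on the same arrays: Gadd45a measured 6.69, 7.14, 6.15 and 6.78 without and 10.15, 10.16, 9.39 and 9.92 with H2O2. The members' median change was 0.03 on the log2 scale, and 60 of 64 had an estimate above 0, beside a median of 0.02 and 24758 of 45037 estimates above 0 over all probe sets. For the 62 members the 95% intervals of the changes lay between -0.19 and 0.29.

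None of the measured Mdm2-binding members was called in WT cells (0 of 4, beside 3.66% of all probe sets). Rpl11, which joins the 5S RNA particle that blocks Mdm2, read 12.57, 12.60, 12.57 and 12.58 untreated and 12.58, 12.57, 12.59 and 12.57 with H2O2 (difference -0.00 ± 0.06, SE, n = 4). All 8 arrays lay within the same narrow band. Rpl23, a protein of the large subunit that also binds Mdm2, read 12.74, 12.75, 12.71 and 12.74 untreated and 12.84, 12.87, 12.60 and 12.76 with H2O2 (0.03 ± 0.06). Its H2O2 arrays spread around the untreated ones, with replicates 1 and 2 above and replicate 3 below. Rps7 and Rpl26 measured 0.03 ± 0.04 and 0.04 ± 0.04, neither of them called. Rpl5 and Rps27a, which also bind Mdm2, were not analysed here.

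Stalk and core proteins were not called either. Rplp0, Rplp1 and Rplp2 form the stalk that recruits elongation factors, and in WT cells they measured 0.01, 0.00 and 0.04. Rps6, the substrate of S6 kinase, read 12.97, 12.98, 12.99 and 13.03 untreated and 13.03, 13.09, 13.05 and 12.99 with H2O2. The groups overlapped. Rpl3, a protein near the peptidyl transferase center, measured -0.02 ± 0.06, and Rpl22, an RNA-binding protein of the large subunit, 0.05 ± 0.07. Among the larger estimates, which did not pass the test, Rpl14 stood at 0.21 ± 0.31, Rps15a at 0.10 ± 0.15 and Rpl32 at 0.09 ± 0.05 (adjusted p = 0.59, limma). Those at the low end were Rpl21, Rpl3 and Rps24, at -0.02, -0.02 and -0.00.

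Among p66-/- arrays, 0 of 64 members were called and 0 had an unadjusted p under 0.05, with 0.0178% of all probe sets called. The groups were apart in 0 members upward and 0 downward, beside 1.21% and 1.59% of all probe sets. The median change was 0.00, and the intervals of the 62 members lay between -0.24 and 0.27. Rpl13a, Rps12 and Rpl39 had the highest estimates (0.07, 0.07 and 0.06), while Rpl14, Rps15a and Rps13 had the lowest (-0.19, -0.06 and -0.05). In p53-/- cells by the labels, 0 of 64 were called, beside 4.56% of all probe sets, and 3 had an unadjusted p under 0.05. The groups were apart in 0 members upward, beside 4.28%, and in 4 downward, beside 5.68%, namely Rpl17, Rplp1, Rps7 and Rpsa (-0.10 to -0.06). Here the median was -0.04 for the members and for all probe sets alike, and 9 of 64 estimates were above 0, which becomes 0.04 and 55 of 64 with the labels exchanged. Rpl14, Rpl13 and Rpl36 had the lowest estimates by the labels (-0.23, -0.15 and -0.13), and Rps15a, Rps29 and Rpl23 the highest (0.14, 0.06 and 0.05).

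Tests of the difference between genotypes called 0 of the 64 at their chosen probe sets. Responses to H2O2 in p66-/- minus WT cells gave 0 members and 0.00222% of all probe sets, with 0 members at an unadjusted p under 0.05. In p53-/- minus WT cells, by the labels, the counts were 0 members and 10.8%, with 3 members at an unadjusted p under 0.05. After the swap 0 members were called. The 10.8% rests on labels that Atf3 and Gadd45a read against, and the share after the swap is not given here. Among further probe sets called by the labels were those of Rpl41 (1.45 and 0.85), Rpl13 (0.86) and Rpl37 (-0.61).

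**Figure D1:**
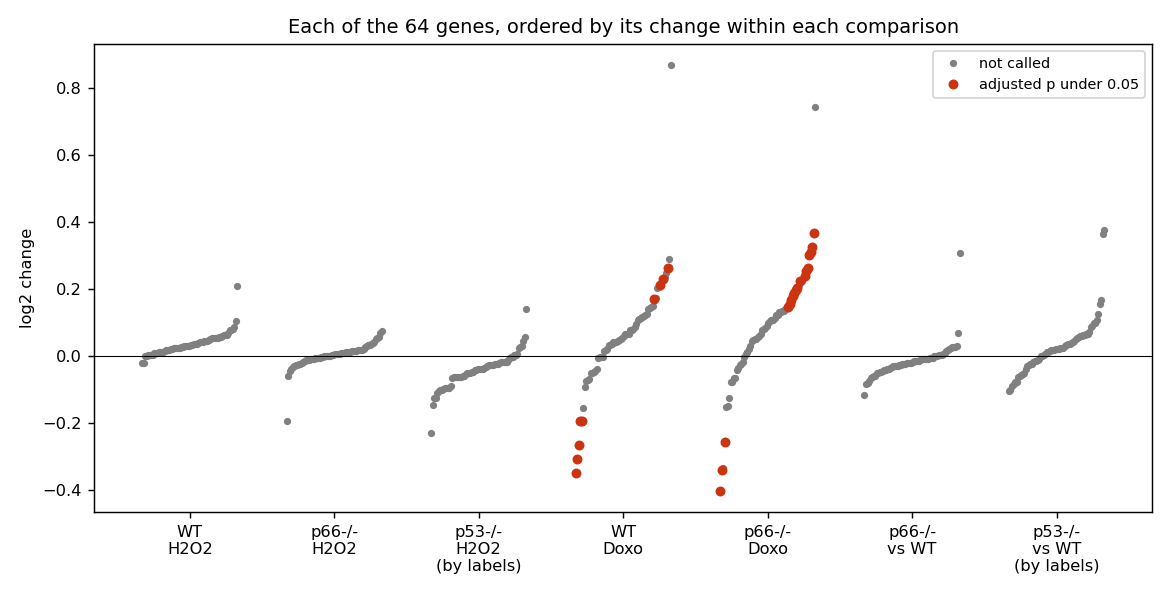
Log2 change of each of the 64 ribosomal protein genes (points) in 5 treatment and 2 genotype comparisons, ordered by size within each; red points have an adjusted p under 0.05. Called genes appear in these comparisons only after Doxo, 9 in WT and 18 in p66-/- cells, and the highest grey point there is Rpl14 (0.87 and 0.74).

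Genotype alone also left 0 members past the threshold at their chosen probe sets. A further probe set of Rpl41 (mean 6.77) was lower in untreated p53-/- cells by the labels (-0.62, adjusted p = 0.019, limma). Between untreated p66-/- and WT cells, 0 of 64 were called, as were 0% of all probe sets, and 0 of 64 and 593 of all 45037 had an unadjusted p under 0.05. Rpsa, a component of the small subunit also known as the laminin receptor precursor, read 12.57, 12.56, 12.58 and 12.58 in WT and 12.37, 12.42, 12.60 and 12.64 in p66-/- cells (-0.07 ± 0.06). In the latter the arrays split by replicate number, with 1 and 2 low. Between untreated p53-/- and WT cells by the labels, 0 of 64 were called, with 4.75% of all probe sets, and 4 had an unadjusted p under 0.05. They were Rps15a (0.37), Rpl22 (0.17), Rpsa (0.15) and Rpl32 (0.13), while Rpl14 stood at 0.38 and Rpl27, Rps24 and Rps29 at -0.10, -0.10 and -0.09. Against WT, untreated p66-/- cells had their highest estimates for Rps15a, Rpl14 and Rpl22 (0.31, 0.07 and 0.03) and their lowest for Rps15, Rpl13a and Rpl36 (-0.12, -0.08 and -0.08). Rpsa read 12.69, 12.75, 12.69 and 12.78 on these p53-/- arrays, all of them above the WT ones, with an adjusted p of 0.16 in limma. With the labels exchanged the median difference turned from 0.02 to -0.02, again with 0 of 64 called. The 4.75% is by the labels, and the share after the exchange is not given here.

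Doxo gave called changes in both directions. In WT cells 4 of 64 rose, where 21.9% of all probe sets did, and 5 fell, where 13% did. Among p66-/- arrays 15 rose, beside 26.6% of all probe sets, and 3 fell, beside 14.1%. With each array centred on its median over all probe sets, 1 rose and 5 fell in WT, and 5 rose and 5 fell in p66-/- cells. The shares above belong to the fit without centring, and those with centring are not given here. The changes were small: called values ran from -0.35 to 0.26 in WT and from -0.40 to 0.37 in p66-/- cells. The members' medians were 0.06 and 0.09, below the medians of 0.13 and 0.15 over all probe sets. With 2 arrays against 4, an exact permutation test of a single gene cannot go below p = 0.067, so calls rest on the spread shared over all groups in limma. Without the second WT Doxo array 2 members were called, Rpl21 and Rpl4. The p66-/- count was 6 without the first and 7 without the second Doxo array of that genotype, and 9 and 10 without untreated replicates 1 and 2. Shares of all probe sets in these fits are not given here.

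Rpl21, Rpl23 and Rpl4, large subunit proteins, fell in both genotypes. Rpl21 read 12.43, 12.39, 12.52 and 12.51 in untreated WT cells and 12.16 and 12.07 after Doxo (-0.35 ± 0.07, adjusted p = 6.13e-04). The p66-/- arrays read 12.46, 12.40, 12.46 and 12.40 untreated and 11.94 and 12.11 after Doxo (-0.40 ± 0.07, adjusted p = 1.29e-04). All 4 Doxo arrays lay below every other array of the series, H2O2 and p53-/- arrays included.

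Rpl23 read 12.48 and 12.37 after Doxo in WT and 12.38 and 12.40 in p66-/- cells, against 12.68 to 12.79 on the 8 untreated arrays. Its changes were -0.31 ± 0.075 and -0.34 ± 0.075 (adjusted p = 0.0033 and 0.0012). Of the 4 measured Mdm2-binding members, Rpl23 alone was called. Of all probe sets 21.9% rose and 13% fell in WT, and 26.6% rose and 14.1% fell in p66-/- cells. Rpl11, Rps7 and Rpl26 had changes of 0.08, -0.05 and -0.07 in WT and 0.11, -0.00 and -0.07 in p66-/- cells. Rpl4, whose long internal loop reaches into the peptide exit tunnel, read 12.69 and 12.63 in WT and 12.63 and 12.69 in p66-/- cells after Doxo, while the 8 untreated arrays lay between 12.91 and 12.95. Its changes were -0.27 ± 0.06 and -0.26 ± 0.06.

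Rps24, a small subunit protein mutated in Diamond-Blackfan anemia, read 12.94, 12.94, 12.94 and 12.93 in untreated WT cells and 12.76 and 12.73 after Doxo (-0.20 ± 0.06, adjusted p = 0.016). It measured -0.15 ± 0.06 in p66-/- cells (adjusted p = 0.0502), where both Doxo arrays, at 12.74 and 12.79, lay below the untreated 12.88 to 12.94. Rpl36a fell in WT cells (-0.19 ± 0.07, adjusted p = 0.035) and measured -0.13 ± 0.07 in p66-/- cells. For Rpl36a the WT Doxo arrays disagreed, at 11.91 and 11.67, and without the second of them its change was -0.07. It also lost its call without untreated replicate 1, 3 or 4.

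**Figure D2:**
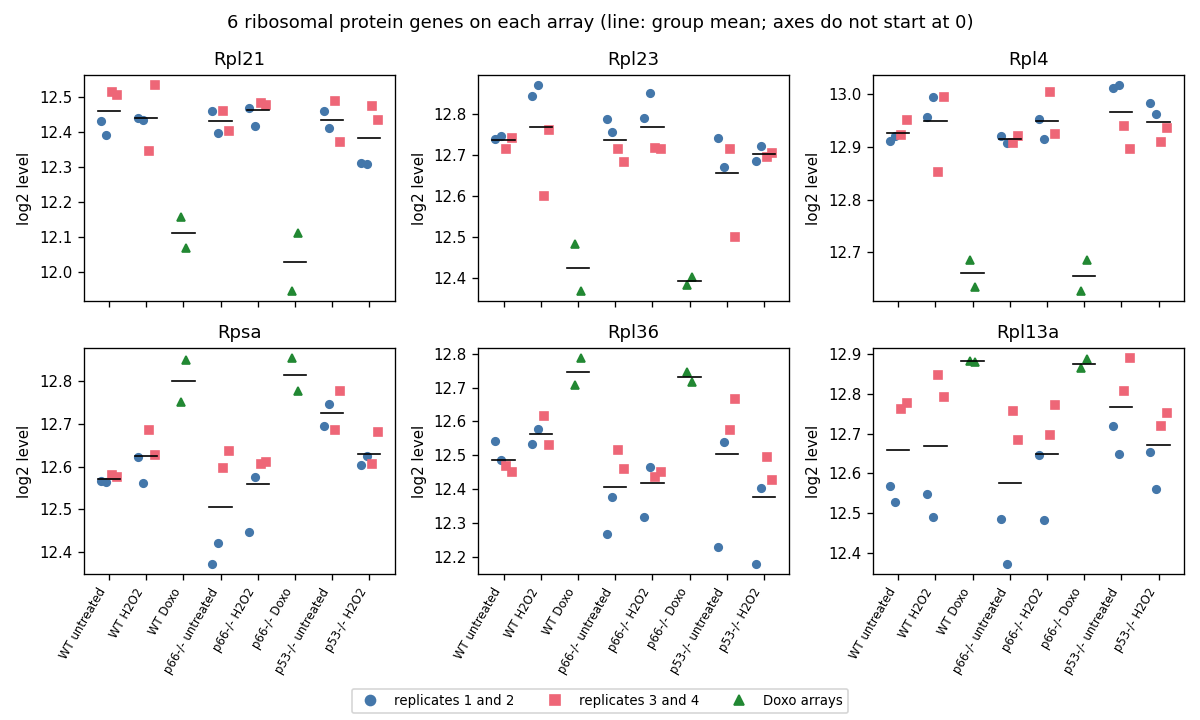
Log2 levels of 6 ribosomal protein genes on each of the 28 arrays (points, marked by array set) with group means (lines); the p53-/- groups are as labelled. In the upper row the Doxo arrays of Rpl21, Rpl23 and Rpl4 lie below all others, and in the lower row Rpl13a splits replicates 1 and 2 from replicates 3 and 4 in the untreated WT group.

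Rpsa, Rpl36, Rpl19 and Rps14 rose in both genotypes. Rpsa read 12.75 and 12.85 after Doxo in WT cells, above the untreated 12.56 to 12.58 (0.23 ± 0.07, adjusted p = 0.018). The p66-/- Doxo arrays read 12.85 and 12.78, above the untreated 12.37 to 12.64 (0.31 ± 0.07, adjusted p = 0.0020). Rpl36, a large subunit protein, rose by 0.26 ± 0.10 in WT and 0.33 ± 0.10 in p66-/- cells. Its call in WT cells was lost in 6 of 6 fits that left out 1 array, and those of Rps14, Rpl19 and Rpsa in 5, 2 and 1. Rpl19, also of the large subunit, rose by 0.21 ± 0.07 and 0.25 ± 0.07, and Rps14, of the small subunit, by 0.17 ± 0.06 and 0.24 ± 0.06. Rps15 (0.37), Rpl13a (0.30), a protein with a known role in interferon-dependent silencing of translation, and Rpl8 (0.26), of the large subunit, were among the 6 largest of the 15 rises in p66-/- cells, which began at 0.15.

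Stalk proteins were not called. Rplp0, Rplp1 and Rplp2 measured 0.09, 0.05 and 0.11 in WT and 0.10, 0.08 and 0.12 in p66-/- cells. Rps6 measured 0.02 and 0.05, Rpl3 0.04 and 0.12, and Rpl22, which binds viral and cellular RNAs outside the ribosome, 0.07 and 0.02. By subunit, 2 of 23 small and 2 of 41 large subunit proteins rose in WT cells, where 21.9% of all probe sets did. There 1 small and 4 large ones fell, where 13% of all probe sets did. The counts for p66-/- cells were 6 and 9 rises, and 0 and 3 falls, beside 26.6% up and 14.1% down of all probe sets. Rpl14 read 8.84 and 8.77 after Doxo in WT cells against 7.92, 7.34, 8.21 and 8.28 untreated, and its change of 0.87 ± 0.38 was not called.

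Both genotypes were then set side by side. The signs of the changes matched in 58 of 64 members, 4 members rose in both, 3 fell in both, and across the 64 genes the changes had a Pearson r of 0.93. Those comparisons share no array, but all 4 Doxo arrays are of the same array set. The test of p66-/- minus WT responses called 0 members and 0% of all probe sets, with 0 members and 1077 probe sets at an unadjusted p under 0.05.

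**Figure D3:**
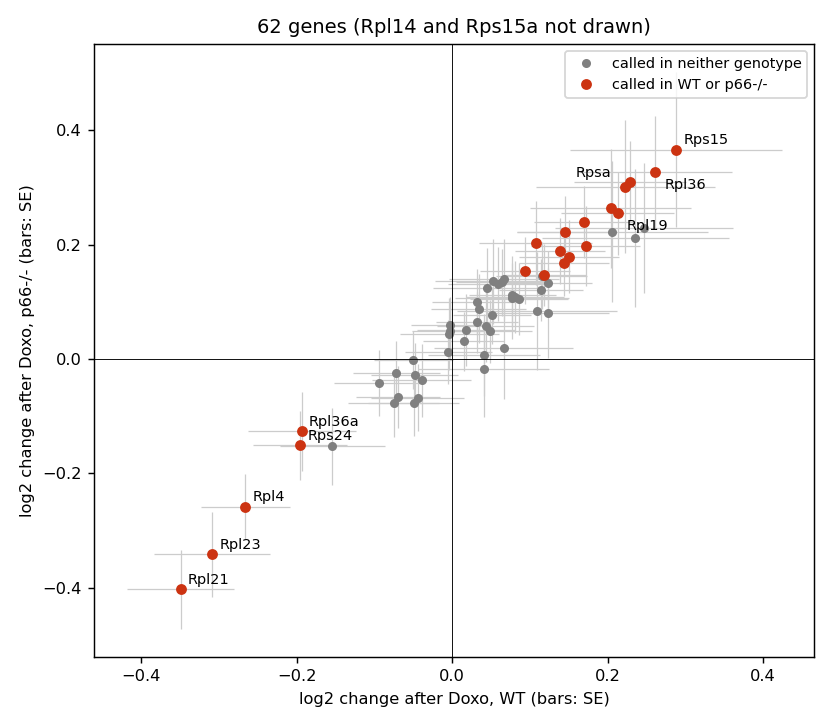
Log2 change after Doxo in WT (horizontal) and p66-/- cells (vertical) for 62 ribosomal protein genes, with SE bars; red points were called in either genotype. Points run upward from Rpl21 (-0.35 and -0.40) to Rps15 (0.29 and 0.37).

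Levels also differed between the array sets. Within the 6 untreated and H2O2 groups, 20 of 64 members were higher in replicates 3 and 4 than in 1 and 2, where 23.8% of all probe sets were, and 0 were lower, where 16.1% were. Rpl14 (0.78), Rps15 (0.25), Rps19 (0.22), Rpl13a (0.21), Rps9 (0.21) and Rpl27 (0.20) differed most. Of the 15 members that rose after Doxo in p66-/- cells, 7 were among these 20, and of the 4 that rose in WT cells, 1. Of the 5 that fell after Doxo, 0 were called between the sets, where 23.8% of all probe sets were higher and 16.1% lower. Rpl23, Rpl21, Rpl36a, Rpl4 and Rps24 differed there by -0.08, 0.05, 0.03, -0.02 and 0.01. For Rpl23 the adjusted p was 0.057 (limma).

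Rpl13a shows the split: untreated WT arrays read 12.57, 12.53, 12.76 and 12.78, and the Doxo arrays 12.88 and 12.88. In all 6 groups the median over the members was higher on both arrays of replicates 3 and 4 than on both of replicates 1 and 2. Over the array sets these medians spanned 12.59 to 12.72 for replicates 1 and 2, 12.69 to 12.77 for replicates 3 and 4, and 12.75 to 12.78 for the Doxo arrays.

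**Figure D4:**
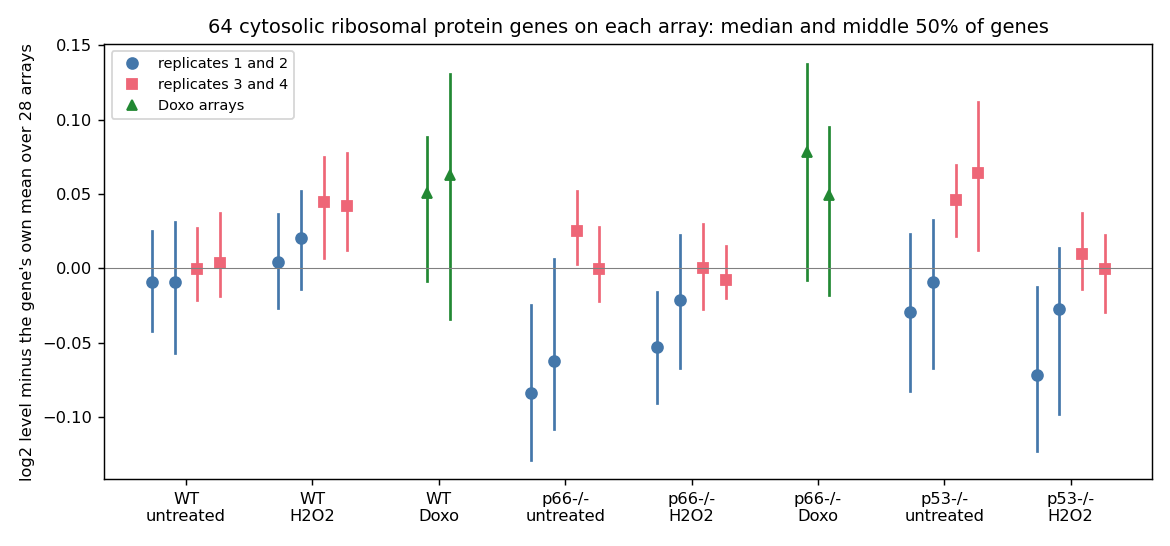
Median (symbols) and quartiles (lines) over the 64 ribosomal protein genes of the log2 level minus each gene's own mean, for the 28 arrays by group, with the p53-/- groups as labelled. In each group of 4 the squares (replicates 3 and 4) lie above the circles (replicates 1 and 2), and Doxo arrays lie at 0.05 to 0.08.

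Against untreated replicates 1 and 2 alone, 8 of 64 members were called in WT cells, with 28.8% of all probe sets, and 25 of 64 in p66-/- cells, with 42.8%. Against untreated replicates 3 and 4 alone, 4 of 64 were called in WT cells, with 22.6% of all probe sets, and 4 in p66-/- cells, with 18.1%. Rpl21, Rpl23 and Rpl4 were called as lower in all of these: Rpl21 by -0.30 and -0.40 in WT and -0.40 and -0.40 in p66-/- cells, Rpl4 by -0.26 and -0.28 and by -0.26 and -0.26. All 15 risers of p66-/- cells had smaller estimates against replicates 3 and 4 (0.11 to 0.24) than against 1 and 2 (0.18 to 0.53), as did 2 of the 4 risers of WT cells. Rpl13a in p66-/- cells measured 0.45 against the first pair and 0.15 against the second, Rps15 0.53 and 0.20, and Rpsa 0.42 and 0.20, and 0 members were called as higher. In WT cells Rpsa was called against each pair (0.24 and 0.22). Rpl14 was called against the first pair only, at 1.18 in WT and 1.22 in p66-/- cells, and measured 0.56 and 0.27 against the second.

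Other probe sets of the same genes were read next. Of the 59 further probe sets, 31 had a mean over 11, and the sign of their Doxo change matched the chosen one in 28 of these in WT and in 27 in p66-/- cells. Among the 28 dimmer ones it matched in 16 in each genotype. Second bright probe sets of Rpl21 and Rpl23 fell as well, by -0.37 and -0.27 in WT and by -0.30 and -0.22 in p66-/- cells. Changes of some dim probe sets were larger. A probe set of Rpl23 with a mean of 7.40 fell (-1.25 and -1.28), and one of Rps24 with a mean of 7.78 fell too (-1.63 and -1.58). One of Rpl15, a large subunit protein, with a mean of 8.51 fell (-2.34 and -2.25), while the chosen one measured 0.12 and 0.13. For Rpl41, the shortest protein of the ribosome, the chosen probe set measured 0.12 and 0.15, and a dim one (mean 6.77) -0.61 and -0.63. Which transcripts or transcript ends these probe sets read was not tested.

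Start sites of the genes were compared with the known TOP motif. RefSeq (GRCm38.p6) gives a start window for 50 of the 64 members. In 11 of 50 (22%) the annotated start base is a C that begins a run of at least 5 pyrimidines on the gene's strand, against 813 of 27025 genes (3.01%). A second rule asked for such a run that begins with a C after a purine, anywhere within 10 bases of the annotated start on either side. The counts were 23 members (46%) and 7029 genes (26%). A run at the start base that follows a pyrimidine, as in Rpl28, counts by the first rule only. The counts of these rules are therefore not nested. Among the 4 fallers with a window 0 had the run at the annotated start, as did 3 of 11 risers and 8 of 35 members without a call. By the second rule the counts were 1 of 4 (Rpl36a), 4 of 11 and 18 of 35. The following 30-base windows show 3 risers with the run and 3 fallers without it at the annotated start, 10 bases before and 20 from the start on. Capitals mark the run, or the start base alone where there is none.
Rps10, chr17:27635225-27635254, minus strand: gcgcacgcccCTTCCTTTCCagcctccgcc
Rps18, chr17:33955646-33955675, minus strand: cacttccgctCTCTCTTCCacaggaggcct
Rpl28, chr7:4792955-4792984, plus strand: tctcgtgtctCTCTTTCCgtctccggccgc
Rpl23, chr11:97782420-97782449, minus strand: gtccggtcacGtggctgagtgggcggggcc
Rpl4, chr9:64173377-64173406, plus strand: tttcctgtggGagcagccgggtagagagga
Rpl36a, chrX:134585644-134585673, plus strand: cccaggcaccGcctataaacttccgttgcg
Rps10, Rps18 and Rpl28 rose in p66-/- cells by 0.20, 0.19 and 0.17. Their calls were lost in 4, 1 and 4 of 6 fits that left out 1 array. The runs have 10, 9 and 8 letters. Annotated starts can lie some bases from the start in use, and a window without the run says only that these letters are not at the annotated base.

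Many members host small nucleolar RNAs, the guides of ribosomal RNA modification, in their introns. RefSeq places at least 1 inside 24 of 64 members (37.5%) and 372 of 21900 protein-coding genes (1.7%). They lie in 3 of the 5 fallers (Rpl21, Rpl23 and Rpl4), 5 of the 15 risers and 16 of the 44 members without a call.

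Profiles over all 28 arrays split the members. Each was compared with the median profile of the 64, and 41 correlated with it at r over 0.5, up to 0.95 for Rps16, while 13 had r under 0. The lowest were Rpl23 (-0.65), Rpl4 (-0.58) and Rpl21 (-0.46), followed by Rpl30 (-0.37), which was not called after Doxo (-0.15 in each genotype, adjusted p = 0.078 and 0.074). The arrays share array sets and treatments, so these values describe likeness only. By root mean square departure, Rpl14 (0.46), Rps15a (0.27), Rpl21 (0.16), Rpl23 (0.16), Rps15 (0.14) and Rpl4 (0.13) stood farthest from the median profile.

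Some paralogues that the symbol rule leaves out were called. Rps27l, a close relative of Rps27 and a known p53 target, read 12.12, 12.12, 12.24 and 12.20 in untreated WT cells and 11.91, 11.53, 11.97 and 11.95 on p53-/- arrays labelled untreated (-0.33 ± 0.09, adjusted p = 0.032). Its 3 probe sets gave -0.33, -0.35 and -0.39. On the p53-/- arrays labelled H2O2 it read 11.88, 11.70, 11.97 and 11.86. All 8 p53-/- arrays lay below the WT ones, but with the labels exchanged the difference of -0.31 ± 0.09 had an adjusted p of 0.51. Leaving out 1 array at a time ended the call in 5 of 8 cases. After H2O2 it measured 0.08 ± 0.09 in WT cells, which was not called.

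Rpl22l1, the paralogue of Rpl22, read 12.04, 12.08, 11.80 and 11.97 in untreated WT cells and 10.91 and 10.73 after Doxo (-1.15 ± 0.17, adjusted p = 3.45e-05). The p66-/- arrays read 11.77 to 12.08 untreated and 10.94 and 10.89 after Doxo (adjusted p = 1.36e-04). Doxo arrays lay below all untreated ones in both genotypes. Rpl7l1, a nucleolar relative of Rpl7, read 9.24, 9.16, 9.41 and 9.45 untreated and 8.24, 8.49, 8.77 and 8.65 after H2O2 in WT cells (-0.78 ± 0.15, adjusted p = 0.0038). Its further probe sets measured -0.81 (adjusted p = 0.065) and -0.68 (adjusted p = 5.66e-05). The p66-/- difference was -0.54 ± 0.15 (adjusted p = 0.46), and in p53-/- cells 0.62 as labelled and -0.62 after the exchange. Fau, whose product is cut to a ubiquitin-like protein and Rps30, rose after Doxo by 0.24 and 0.31, and Rps3a1, of the small subunit, fell (-0.31 and -0.18).

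**Figure D5:**
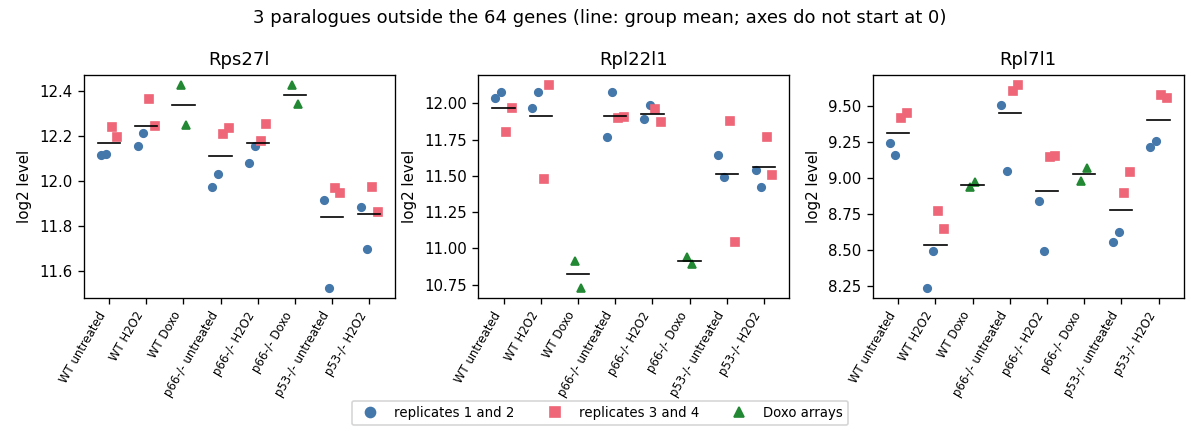
Log2 levels of Rps27l, Rpl22l1 and Rpl7l1 on each of the 28 arrays (points, marked by array set) with group means (lines); p53-/- groups are as labelled. Rps27l is lower on the 8 p53-/- arrays than on the WT arrays, Rpl22l1 is lowest on the 4 Doxo arrays of WT and p66-/- cells, and Rpl7l1 is lower after H2O2 in WT cells.

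Genes that build the ribosome were read from the same fit. Of 41 measured ribosome biogenesis genes, 3 fell after H2O2 in WT cells: Grwd1, a nucleolar histone chaperone (-1.11 ± 0.24), Ebna1bp2 (-0.91 ± 0.24) and Utp15 (-0.42 ± 0.11), both needed for rRNA processing. Of all probe sets 1.81% fell in this comparison. The median of the 41 was -0.20, beside 0.02 over all probe sets. None fell in p66-/- cells (0 of 41, 6 at an unadjusted p under 0.05), where the median was -0.21. After Doxo 1 rose and 15 fell in WT, and 2 rose and 18 fell in p66-/- cells. Beside these and the Doxo counts of the lists that follow stand the shares of all probe sets, 21.9% up and 13% down in WT and 26.6% up and 14.1% down in p66-/- cells. Wdr3 and Wdr43, of the small subunit processome, and Npm1, a nucleolar chaperone, fell in WT cells (-1.60, -1.94 and -1.82). In p53-/- cells as labelled 3 of 41 rose after H2O2 and 0 fell, which turns to 3 falls with the labels exchanged. Beside the H2O2 counts of this and later lists stand the shares of all probe sets called in either direction. These were 3.66% in WT, 0.0178% in p66-/- and 4.56% in p53-/- cells as labelled.

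Of 12 RNA polymerase I genes, 2 rose (16.7%) and 4 fell (33.3%) after Doxo in each genotype, in WT cells Twistnb and Taf1d downwards (-2.71 and -3.18) and the shared subunit Polr1c upwards (0.95). Of 19 translation factors and related genes known for TOP mRNAs, 0 were called after H2O2 in any genotype, with 0, 0 and 2 at an unadjusted p under 0.05 in WT, p66-/- and p53-/- cells. After Doxo 3 rose and 9 fell in WT, among them Eif3m (-1.04), Nap1l1 (-1.04) and Npm1 (-1.82), and 5 rose and 7 fell in p66-/- cells. Of 19 genes of initiation control, 1 rose and 1 fell after H2O2 in WT cells, the cap-binding protein Eif4e (0.68 ± 0.15) and the kinase Eif2ak4 (-0.85 ± 0.15). After Doxo 5 rose and 7 fell in WT, and 4 rose and 7 fell in p66-/- cells.

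In mTOR signalling, which controls translation of TOP mRNAs, 2 of 16 genes rose and 2 fell after H2O2 in WT cells. Of all probe sets 3.66% were called there in either direction. Sesn2 and Ddit4l, inhibitors of the pathway, rose by 1.42 and 2.28, while Mtor and Larp1, the kinase and a TOP mRNA binding protein, fell (-0.55 and -0.42). After Doxo 4 rose and 4 fell in WT, and 5 rose and 4 fell in p66-/- cells.

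Mitochondrial ribosomal proteins, which translate the mitochondrial genome, gave other counts. Of 71, after Doxo 28 rose and 4 fell in WT cells, and 39 rose and 5 fell in p66-/- cells, with medians of 0.61 and 0.68, where all probe sets had 0.13 and 0.15. After H2O2 0 of 71 were called in WT cells, with 9 at an unadjusted p under 0.05 and a median of -0.01. No test compared the lists with each other.

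Other measures moved with Doxo too. Of 12 fibroblast markers, 3 fell in WT cells, the matrix protein Postn by -2.56, and 4 fell in p66-/- cells, and their mean log2 level was 8.88 to 9.23 on the 4 Doxo arrays and 9.34 to 10.46 on the 8 untreated ones. Of 19 markers of other cell types, 3 rose in WT cells, and 4 rose and 1 fell in p66-/- cells. Their mean levels were 5.28 to 5.48 against 4.76 to 5.21. On the WT and p66-/- H2O2 arrays the fibroblast markers had means of 9.03 to 10.22, and on the p53-/- arrays 8.91 to 9.71. Markers of other cell types had 4.77 to 5.20 and 4.56 to 5.33 there. Some of these values lie inside the Doxo ranges. The 3′ minus 5′ difference of the actin control was 0.16 to 0.23 on the Doxo arrays, inside the range of 0.14 to 0.49 over the untreated and H2O2 arrays. Whether any of these had a part in the ribosomal protein changes was not tested.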

How the data were processed

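The authors labelled RNA by the Affymetrix 3′ IVT protocol, ran MOE430PM strip arrays and, per the submitters' processing notes, normalized them by RMA in Partek 6.5. The deposited values are log2 intensities and were used as given. RMA sets all arrays to 1 distribution, so that a shift shared by most transcripts would not show. Arrays have no read depth, and their number limits precision.

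Of 45141 probe sets, 104 controls were left out. A single gene symbol was paired with 28898 of the 45037 tested. limma 3.58.1 in R 4.3.3 fitted 1 mean per group over 28 arrays, and p-values were adjusted by Benjamini-Hochberg over all probe sets. Called means adjusted p under 0.05, and rose or fell is used of called genes. The script was tested on simulated data for the WT H2O2 comparison only, without differences between array sets. The Doxo comparisons were not checked in this way. Members and lists were chosen with earlier results of these data known.

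Named are the called members of each comparison, up to 6 each way, the 3 largest estimates each way where fewer than 3 were called, members that bind Mdm2, stalk and reference members, the 6 with the largest departure from the median profile, and up to 3 genes a list by adjusted p. Second probe sets, Rps10, Rps18, Rpl28, Rpl30, Rps16, Rpl7l1, Fau and Rps3a1 were picked after their values were seen, as were the array set comparisons. Start windows come from RefSeq.

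Same-numbered untreated and H2O2 arrays deviated together (r = 0.51 to 0.75 over probe sets). Same-numbered untreated arrays of WT and knockout cells did so too (r = 0.35 to 0.57). The array sets follow the same numbers, so these values do not show whether the numbers pair arrays. For Doxo r was -0.08 to 0.05, so these do not.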

Additional observations from a re-analysis of the deposited data

Results flagged for a closer look

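Of 150 sets of 4 arrays examined for 24 named members and the median of all members, 6 held an array far from the other 3, by its gap over the range of the set. Chance gives about 1 in 20. On arrays labelled p53-/- untreated these were Rps7 (0.922 of the range, replicate 4 high), Rpl22 (0.844, replicate 2 low) and Rpl32 (0.888, replicate 4 high). On those labelled p53-/- H2O2 they were Rpl26 (0.93, replicate 1 low) and Rplp0 (0.865, replicate 2 low). For p66-/- cells with H2O2 it was Rps15a (0.924, replicate 2 low). The gaps were 0.07 to 0.32 on the log2 scale.

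By the labels, the H2O2 response of Rpl7l1, which is no member, differed between p53-/- and WT cells by 1.40 (adjusted p = 1.12e-04, limma). With the p53-/- labels exchanged the difference was 0.16 (adjusted p = 1.0).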

How the results depend on the processing

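No H2O2 or genotype comparison called a member with the replicate number as a block, which left every one of these counts at 0. For Doxo, same-numbered arrays did not deviate together. There the replicate block gave 22 calls in WT (18 up, 33.3% of all probe sets up). In p66-/- cells it gave 29 (26 up, 36.7%), and the WT median was 0.0927. Counts of 9 (WT) and 18 (p66-/-) also moved under other settings. The methods' t-test at unadjusted p under 0.05 and 1.5-fold gave 0 and 0, after Benjamini-Hochberg 21 and 5. The thresholds of the methods in limma gave 1 (Rpl14) and 0. Only 2 were called in p66-/- cells when the fit held the compared groups alone, 10 with arrays centred on their medians, and 5 in WT cells without the 22 members on _x_ or _s_ probe sets. Against untreated replicates 3 and 4 the counts were 4 and 4, beside 22.6% and 18.1% of all probe sets. Leaving out each array gave 2 to 8 in WT cells (2 without Doxo replicate 2) and 6 to 19 in p66-/- cells (9 and 10 without untreated replicate 1 or 2, 6 and 7 without Doxo replicate 1 or 2). Shares of all probe sets are given here only for the replicate block and for replicates 3 and 4. The other counts therefore cannot be set beside all probe sets. Why the counts moved was not tested.

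Centring moved Doxo medians to 0.0186 and 0.035 and that of H2O2 in p53-/- cells to 0.0012. In p66-/- cells the Doxo median was 0.131 against untreated replicates 1 and 2 and 0.0536 against 3 and 4. Genotype medians in replicates 1 and 2 were -0.0611 (p66-/-) and -0.0151 (p53-/-), and in 3 and 4 0.0172 and 0.0558. With p53-/- labels exchanged, medians were 0.0402 (H2O2) and -0.0199 (against WT). Single members were called in p53-/- cells against WT by the adjusted t-test (1, Rpsa), in replicates 3 and 4 (1 in that comparison and 1 in the H2O2 difference from WT, Rpl14), and, by the mean of all probe sets of a gene, after H2O2 and in its difference from WT (1 each, Rpl41). That mean turned Doxo changes in p66-/- cells to -0.19 for Rpl41 and -0.0512 for Rpl9. Exchanged labels turned Rpl7l1 to -0.62 after H2O2 and to 0.0854 against WT. Leaving out arrays, H2O2 and genotype counts ranged from 0 to 0, with medians of 0.03 to 0.04 (WT H2O2), -0.01 to 0.02 (p66-/- H2O2), -0.06 to -0.03 (p53-/- H2O2), 0.05 to 0.06 (WT Doxo), 0.07 to 0.12 (p66-/- Doxo), -0.04 to -0.00 (p66-/-) and 0.01 to 0.03 (p53-/-). Rpl21 and Rpl4 fell in each of these in both genotypes, Rpl36 and Rps14 in WT cells lost their calls in 6 and 5 of 6, and Rps27l in 5 of 8.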
